A study of Mus musculus with 6 samples.

Results

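The 9 haemoglobin and red cell genes described here are the adult alpha globins Hba-a1 and Hba-a2, the beta globins Hbb-b1 and Hbb-b2, the embryonic beta-like globin Hbb-bh1, the haem synthesis enzyme Alas2, the anion exchanger Slc4a1, carbonic anhydrase Car1 and the transcription factor Klf1. The members are the probes that carry one of these names in the array's own annotation, which gave 10 of the 39429 probes. Each probe was taken separately, and Car1 has a pair of them. The genes were read in whole ovaries as a sign of the blood each sample held. The samples were 3 ovaries of SeBP1 knockout mice, which lack selenium-binding protein 1 (gene symbol Selenbp1), and 3 ovaries of wild-type mice. All were C57BL/6J females of 20 weeks, and each ovary RNA was labelled with the dye Cy3 and hybridised to a single-colour Agilent mouse oligonucleotide array. Neither the deleted stretch of the gene nor how the line was made is stated in the labels. Whether the 6 arrays are 6 different mice is not stated either, so the p-values refer to the spread among samples, which may be technical. In whole-tissue RNA, fewer red cells and less RNA per red cell cannot be told apart.

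Adult haemoglobin is a tetramer of alpha and beta globin chains, each of which holds a haem group that binds oxygen. Red cell precursors make the globins, and young circulating red cells (reticulocytes) still carry globin mRNA, so that any tissue with its blood left in gives globin signal. Alas2 makes the first committed compound of haem in red cell precursors, Slc4a1 (band 3) exchanges chloride and bicarbonate across the red cell membrane, Car1 interconverts carbon dioxide and bicarbonate, and Klf1 switches on adult beta globin and other erythroid genes.

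Levels are log2 of the processed spot intensity minus the 75th percentile of that intensity on the same array, so that 0 is the 75th percentile itself. Selenbp1, the deleted gene, read -0.11, 0.02 and -0.37 in knockout ovaries, against 2.68, 2.53 and 2.59 in wild-type ovaries. It was the only probe of 24415 kept that passed the threshold (limma, adjusted p = 0.0104). The 75th percentile lay between 1309 and 1759 intensity units. The share of spots well above background ran from 61.6% to 69.3%. No spot was saturated. The arrays lay on 2 slides, with all 3 knockouts and wild-type replicate 3 on slide 2, and wild-type replicates 1 and 2 on slide 1. Of the ovary's own genes, Inha, which encodes the inhibin alpha chain of granulosa cells, read 6.39, 6.58 and 6.83 in knockout and 6.73, 6.70 and 6.24 in wild-type ovaries. Cyp11a1, the enzyme that starts steroid synthesis, read 6.23, 3.93 and 5.98 in knockout and 5.89, 5.92 and 6.62 in wild-type ovaries, lowest in knockout replicate 2. Lhcgr, the luteinizing hormone receptor, was also lowest there, at 0.53, -2.77 and -0.05 in knockout and 0.21, -0.27 and 1.44 in wild type. All 12 ovary genes of the list were kept, none passed the threshold, and Foxl2, a granulosa cell factor, differed by -0.19.

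The adult alpha globins gave strong signal in every ovary and differed several-fold between ovaries of the same genotype. Knockout replicate 2 stood far above all the others. Hba-a1 read 3.23, 5.17 and 3.00 in knockout ovaries, against 3.07, 2.19 and 2.12 in wild-type ovaries. In intensity units this was 15356, 53835 and 13298 in knockout and 14722, 7224 and 5685 in wild type. Wild-type replicate 1 lay between knockout replicates 1 and 3, so the genotypes overlapped, and wild-type replicates 2 and 3 were the lowest pair. Hba-a2 read 4.86, 6.67 and 4.71 in knockout and 4.72, 3.88 and 3.79 in wild type, with the 6 ovaries in the same order. Its intensity reached 151662 units in knockout replicate 2, against 18161 to 46300 units in wild type. The Hba-a1 probe lies on chromosome 11 at 32183955 to 32184014 and the Hba-a2 probe at 32197245 to 32197304 (mm9, forward strand). The files list both alpha globin transcripts for either probe, so the duplicated genes cannot be told apart and their pair of probes is not independent evidence.

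The beta globin probes showed the same ovary as the highest. Hbb-b1 read 2.17, 4.26 and 1.90 in knockout ovaries, against 1.99, 0.93 and 0.87 in wild-type ovaries. Hbb-b2 read -0.09, 2.01 and -0.15 in knockout and -0.30, -1.24 and -1.13 in wild type. Of the 7 member probes tested, Hbb-b2 was the only one whose genotypes did not overlap (4.21% of all kept probes had every knockout above every wild type), by a gap of less than the distance between wild-type replicates 1 and 2. The Hbb-b1 probe lies on chromosome 7 at 110961105 to 110961164 (mm9, reverse strand). RefSeq on assembly GRCm38.p6 names the transcript of this probe Hbb-bt, since C57BL/6 mice carry the beta globin haplotype with the genes Hbb-bs and Hbb-bt in place of Hbb-b1 and Hbb-b2. The Hbb-b2 probe has no place in mm9 in the files, so which beta globin transcript it reads in this strain is not settled. The probe sequences of an alpha and a beta globin are shown because the readings rest on what these 60 bases can bind. Each is free of stop codons in 1 of its 3 forward frames.
Hba-a1 probe: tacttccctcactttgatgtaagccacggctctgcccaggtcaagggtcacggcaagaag
Hbb-b2 probe: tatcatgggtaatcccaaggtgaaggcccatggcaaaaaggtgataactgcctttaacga

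**Figure D1:**
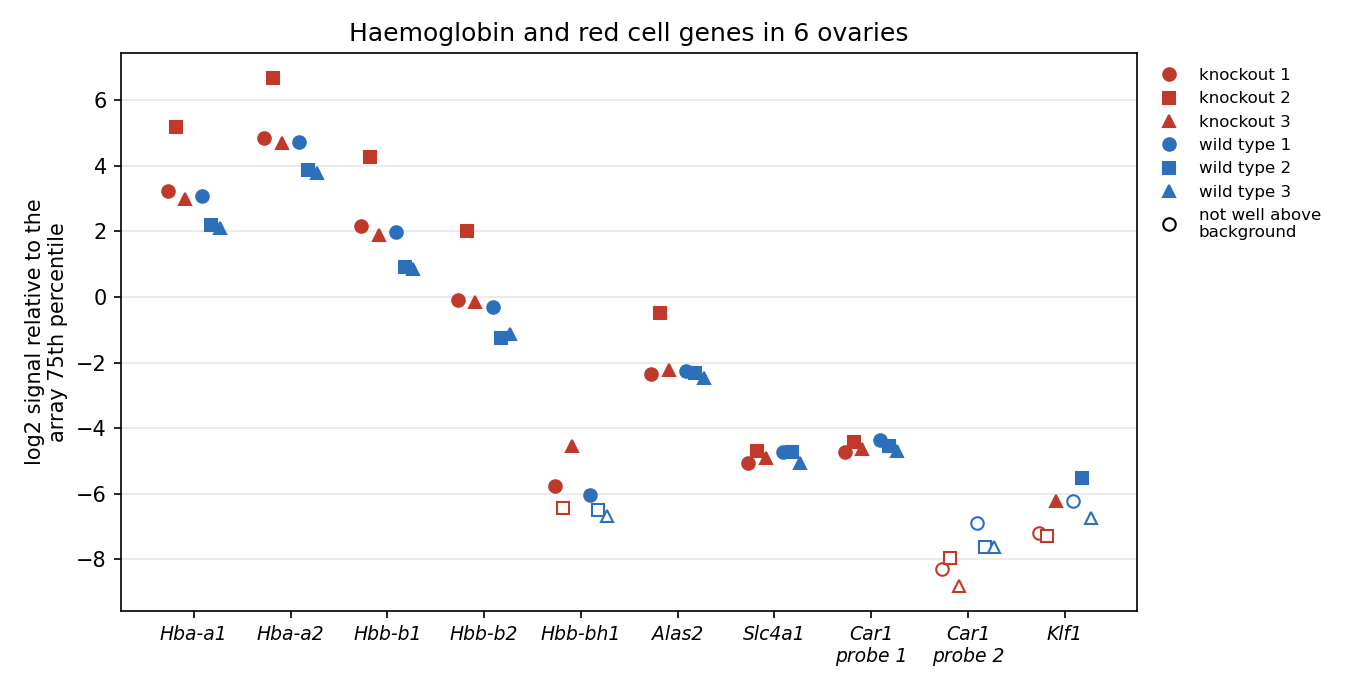
Log2 signal of each of the 10 member probes (horizontal axis) relative to the 75th percentile of the array (vertical axis), with knockout ovaries in red left of wild-type ovaries in blue and a symbol for each replicate number; open symbols were not well above background. Knockout replicate 2 is the highest ovary for the adult globins and Alas2, while Slc4a1 and the first Car1 probe stay within a narrow band.

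A further probe outside the 10 reads the same family. The files give it only a transcript identifier and describe it as the adult minor chain of haemoglobin beta, on chromosome 7 at 110976379 to 110976438 (mm9, reverse strand). It read -1.43, 0.66 and -1.54 in knockout ovaries, against -1.43, -2.49 and -2.88 in wild-type ovaries. Knockout replicate 2 was again the highest and wild-type replicates 2 and 3 the lowest.

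Taken relative to its own mean, each of the 4 adult globin probes rated the 6 ovaries alike. The mean of the 4 deviations was 0.10, 2.09 and -0.08 in knockout ovaries, against -0.07, -1.003 and -1.03 in wild-type ovaries. The ovaries thus lay at 3 levels, with knockout replicate 2 at the top, knockout replicates 1 and 3 and wild-type replicate 1 close together, and wild-type replicates 2 and 3 at the bottom. On a single array the 4 probes spanned 0.10 to 0.35, while their mean ranged over 3.12 log2 units between ovaries, or 8.67-fold. The order within the middle 3 ovaries and within the lowest pair was not the same for all 4 probes, since Hbb-b2 placed knockout replicate 3 above wild-type replicate 1 and wild-type replicate 3 above wild-type replicate 2. Across the kept probes with a value on every array, the median range over the 6 ovaries was 0.52, and 3.41% reached 2 log2 units. Among the 7 kept member probes these were 4, all of them adult globins.

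Alas2 followed the globins in 1 ovary only. The probe, on chromosome X at 147004993 to 147005052 (mm9, forward strand), read -2.34, -0.49 and -2.23 in knockout ovaries, against -2.26, -2.32 and -2.48 in wild-type ovaries. Knockout replicate 2 was 3.55-fold above the median of the other 5 ovaries. Those 5 lay within 0.24 of each other, whereas the same ovaries spanned 1.11, 1.07, 1.31 and 1.15 for Hba-a1, Hba-a2, Hbb-b1 and Hbb-b2. The low globin readings of wild-type replicates 2 and 3 thus had no counterpart of that size in Alas2. For comparison, knockout replicate 2 exceeded the median of the other 5 by 4.50-fold for Hba-a1, 3.88-fold for Hba-a2, 5.15-fold for Hbb-b1 and 4.96-fold for Hbb-b2.

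**Figure D2:**
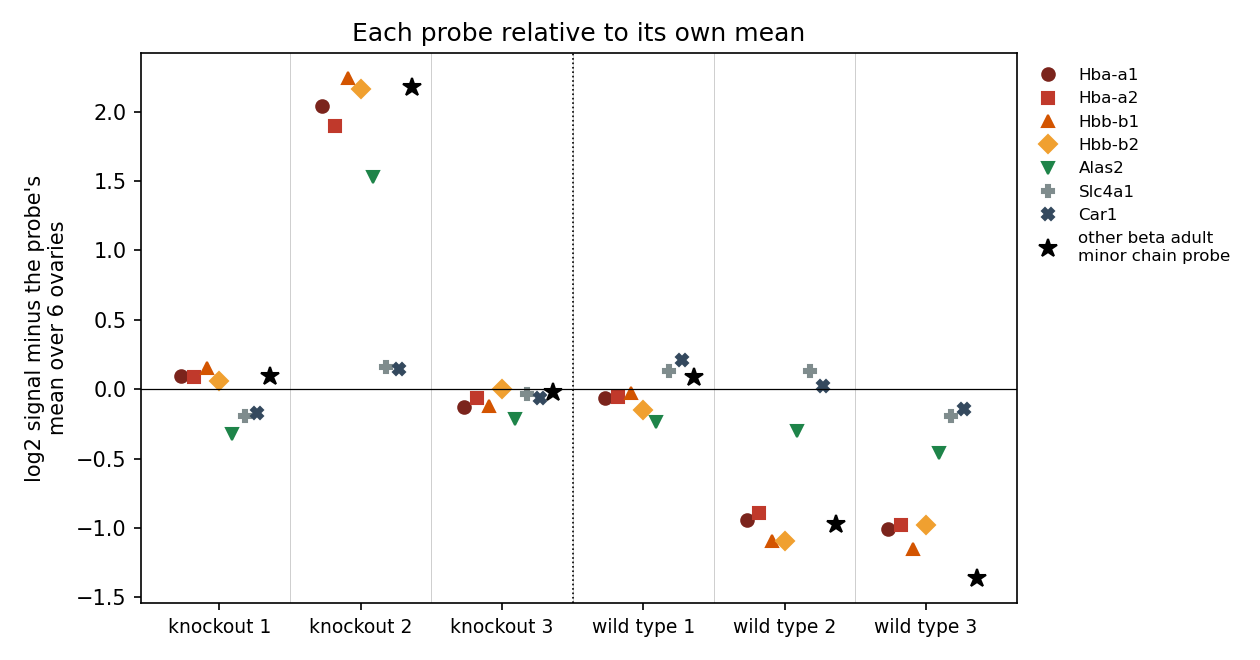
Log2 signal of the 7 kept member probes and of the further beta globin probe (vertical axis), each minus its mean over the 6 ovaries, by ovary (horizontal axis), with knockouts left of wild types. The adult globins average 2.09 in knockout replicate 2, and are lowest in wild-type replicates 2 and 3, Alas2 stands out in knockout replicate 2 alone, and Slc4a1 and Car1 stay near 0.

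Slc4a1 and Car1 were dim and nearly level in all 6 ovaries. Slc4a1, on chromosome 11 at 102210256 to 102210315 (mm9, reverse strand), read -5.06, -4.70 and -4.90 in knockout and -4.73, -4.74 and -5.06 in wild-type ovaries. Its intensities were 49.2, 57.3 and 55.5 units in knockout and 66.2, 59.4 and 39.3 units in wild type. Knockout replicate 2 was nominally the highest, by 0.03. The Car1 probe that was kept, on chromosome 3 at 14767486 to 14767545 (mm9, reverse strand), read -4.73, -4.41 and -4.62 in knockout and -4.35, -4.53 and -4.70 in wild type. Here wild-type replicate 1 was the highest and the genotypes overlapped fully. The second Car1 probe, at 14770171 to 14770230, did not clear background on any of the 6 arrays.

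The embryonic globin and the erythroid regulator were at the limit of detection. Hbb-bh1 was well above background in knockout replicates 1 and 3, at 30.5 and 70.9 intensity units, and in wild-type replicate 1, at 26.6 units. In knockout replicate 2 it was not well above background, at 17.3 units, although the adult globins were highest there. Klf1 was well above background in knockout replicate 3, at 22.2 units, and in wild-type replicate 2, at 34.5 units. The other embryonic and theta globins with probes, Hba-x, Hbb-y, Hbb-bh2, Hbq1a and Hbq1b, were not kept either. Of their 7 probes, 1 of Hbb-y was well above background in knockout replicate 2 and wild-type replicate 2, and that of Hbq1b in wild-type replicates 1 and 2. Of the globins outside red cells, cytoglobin (Cygb) read 4.08, 3.80 and 3.81 in knockout and 4.09, 3.88 and 4.15 in wild-type ovaries, a difference of -0.14, and myoglobin (Mb) and neuroglobin (Ngb) were not kept.

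The genotype comparison asked whether haemoglobin and red cell genes differed between SeBP1 knockout and wild-type ovaries. A probe entered the test if at least 1 genotype had it well above background on each of its 3 arrays. All 7 member probes that entered were well above background on all 6 arrays, and Hbb-bh1, Klf1 and the second Car1 probe did not enter. None of the 7 passed an adjusted p under 0.05, in a comparison where 0% of the 24415 probes were called higher and 0.0041% lower. None passed an unadjusted p under 0.05 either, against 2.2% of all probes higher and 1.74% lower. The mean was higher in the knockout for 5 of the 7, against 45.7% of all kept probes. Hbb-b2 was the 1 of 7 with every knockout above every wild type, against 4.21% of all. The median log2 difference over the 7 was 1.28, and -0.02 over all kept probes.

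For the adult globins the estimates were large and their intervals wide. Hba-a1 averaged 3.80 ± 1.19 in knockout ovaries and 2.46 ± 0.53 in wild-type ovaries (SD, n = 3 each), a log2 difference of 1.34 with a standard error of 0.60 and a 95% interval of -0.11 to 2.80 (limma, adjusted p = 1.00). Hba-a2 averaged 5.41 ± 1.09 in knockout and 4.13 ± 0.51 in wild type, a difference of 1.28 with an interval of -0.06 to 2.62. Hbb-b1 averaged 2.78 ± 1.29 in knockout and 1.26 ± 0.63 in wild type, a difference of 1.51 with an interval of -0.09 to 3.12. Hbb-b2 averaged 0.59 ± 1.23 in knockout and -0.89 ± 0.52 in wild type, a difference of 1.48 with an interval of -0.01 to 2.97. Its unadjusted p of 0.0513 was the smallest of the 7 (limma). These intervals reach from about no difference to several-fold more globin RNA in the knockout.

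Of the remaining members, Alas2 averaged -1.69 ± 1.04 in knockout and -2.35 ± 0.11 in wild-type ovaries, a difference of 0.66 with an interval of -0.51 to 1.84 (limma, adjusted p = 1.00). Slc4a1 differed by -0.05 with an interval of -0.40 to 0.31, and Car1 by -0.06 with an interval of -0.40 to 0.28. For the signal of Slc4a1 and Car1 the intervals exclude a difference of the size estimated for the globins. Both probes were dim, at 39.3 to 66.2 intensity units for Slc4a1 and 50.4 to 86.5 units for Car1. Whether signal this dim follows the amount of RNA was not tested.

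Without knockout replicate 2, the adult globin differences were smaller. They were 0.66 for Hba-a1, 0.65 for Hba-a2, 0.77 for Hbb-b1 and 0.77 for Hbb-b2, or 1.58-, 1.57-, 1.71- and 1.70-fold, against 2.54-, 2.43-, 2.86- and 2.79-fold with it. The Alas2 difference was 0.06, or 1.04-fold, against 1.58-fold with it. All of these had adjusted p of 0.848 to 0.943 (limma). With slide as a fixed term the comparison rests on wild-type replicate 3, the only wild type on slide 2. The globin differences were then 1.68, 1.62, 1.91 and 1.72 in the same order, with adjusted p of 0.609 to 0.626. Wild-type replicate 1, on slide 1, read like knockout replicates 1 and 3, while wild-type replicate 2, also on slide 1, read like wild-type replicate 3. The ovary that stands apart, knockout replicate 2, was highest of the 6 by at least 1 log2 unit for 5 of the 7 member probes, the 4 adult globins and Alas2, against 0.352% of all kept probes. Each of the other 5 ovaries was the highest by that much for 0.149% to 0.802% of all kept probes and for none of the 7.

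**Figure D3:**
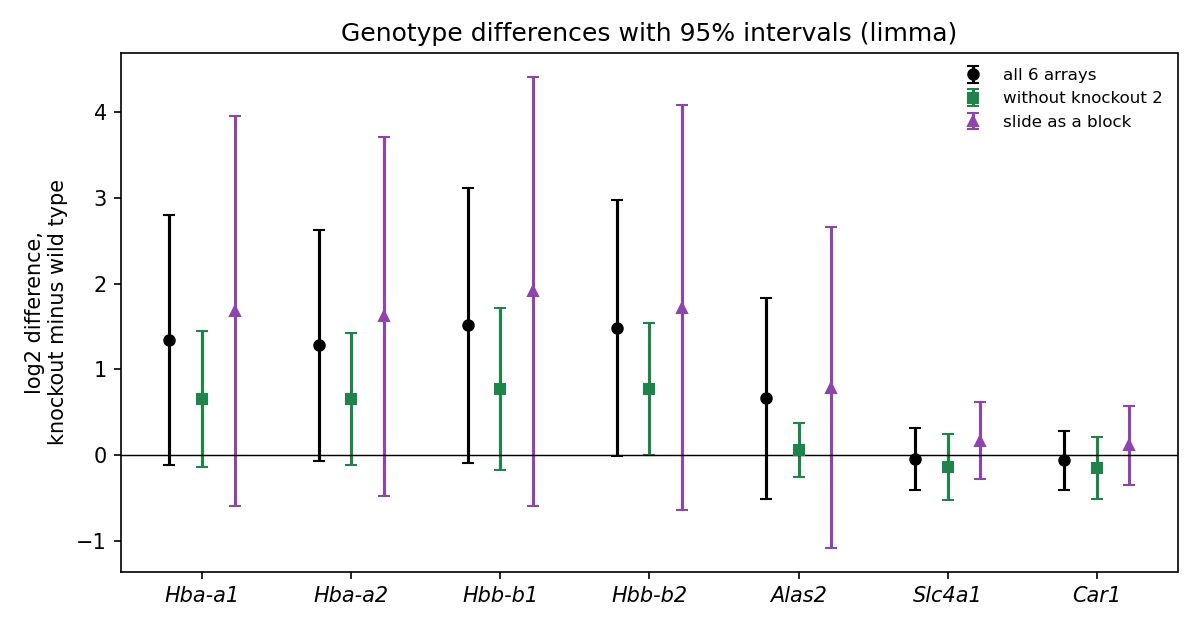
Log2 difference, knockout minus wild type (vertical axis), of the 7 kept member probes (horizontal axis), with 95% intervals from limma as bars, for all 6 arrays, without knockout replicate 2, and with slide as a block. Every interval includes 0, and the differences of the adult globins are 0.65 to 0.77 without knockout replicate 2.

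The wider red cell programme varied far less between ovaries than the adult globins. Over 4 lists of red cell genes, the median deviation of a list in an ovary lay between -0.23 and 0.25. Of 18 genes of haem synthesis and erythroid iron supply, all 18 were kept, none passed the threshold, and the median difference was -0.05. The mean was higher in the knockout for 8 and lower for 10, against 45.7% higher among all kept probes. Alas1, the form of the enzyme that most tissues use, read 4.87, 4.57 and 4.33 in knockout and 4.50, 4.39 and 4.75 in wild-type ovaries. Urod, a later enzyme of the same pathway, read 3.75, 3.53 and 3.43 in knockout and 3.49, 3.66 and 4.28 in wild type. The smallest unadjusted p-values of that list belonged to Steap3, an endosomal ferrireductase (difference 0.21), and Ppox, protoporphyrinogen oxidase (0.17). Of 19 genes of the red cell membrane and its skeleton, 14 were kept, with a median difference of -0.12 and none past the threshold. Epb42, Rhag and Kel, all proteins of the red cell membrane or its skeleton, were among the 5 not kept. Cd47 and Aqp1, a cell surface protein that curbs phagocytosis and a water channel, were the brightest and are also made by many other cells. The smallest unadjusted p-values were those of Cd47, which differed by -0.36, and Ank1, which differed by 0.57. Cd47 read 2.32, 1.86 and 2.29 in knockout and 2.46, 2.24 and 2.86 in wild-type ovaries.

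Erythroid transcription factors and signals had 12 of 15 genes kept, a median difference of 0.07 and none past the threshold. Of the 12, 10 had a higher mean in the knockout, against 45.7% of all kept probes. Knockout replicate 2 was the lowest ovary for 5 of the 12. The median deviation was -0.12 there and 0.25 in knockout replicate 1. Nfe2, a globin locus regulator that platelets' precursors also use, read -4.24, -4.80 and -4.45 in knockout and -4.55, -2.96 and -2.09 in wild type. Its difference was -1.30, and its high wild types were the pair with the least globin. Epor, the erythropoietin receptor, differed by 0.24. The brightest were Zfpm1, a partner of Gata1, and Ldb1, which bridges distant regulatory sites, with differences of 0.06 and 0.05. Other red cell proteins had 12 of 15 genes kept, with a median difference of -0.004 and none past the threshold. The brightest were Prdx2, a peroxidase abundant in red cells, and Hemgn, with differences of -0.01 and -0.04. Hemgn read 4.21, 4.30 and 4.52 in knockout and 4.46, 4.39 and 4.32 in wild type, above Hbb-b1 in every ovary. Whether red cells are the source of that signal was not tested. The smallest p-values belonged to Tspo2 and to Blvrb, a biliverdin reductase, with differences of -0.19 and 0.10. Over these 4 lists, 56 genes were kept, 28 of which had a higher mean in the knockout, against 45.7% of all kept probes.

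Knockout replicate 2 was the highest ovary for 12 of those 56 genes, and by at least 1 log2 unit for none of them. Among the 12 were Ahsp, named after its values were seen, and Ank1. Ahsp, the chaperone that stabilises free alpha globin, read -3.25, -1.32 and -3.51 in knockout and -1.94, -2.67 and -3.37 in wild-type ovaries. Ank1, the ankyrin that ties band 3 to the skeleton, read -1.51, -0.30 and -1.46 in knockout and -1.93, -1.19 and -1.87 in wild type. Across all kept probes, knockout replicate 2 was the highest ovary for 22.5%, and by at least 1 log2 unit for 0.352%.

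By list median, markers of other blood cells and of vessels lay below their mean in knockout replicate 2. Platelet and megakaryocyte genes had 5 of 13 kept and none past the threshold. Their median deviation was 0.57, -0.55 and 0.35 in knockout and 0.09, -0.27 and -0.30 in wild-type ovaries, lowest in knockout replicate 2. Pf4, platelet factor 4, read 0.71, -0.28 and 0.44 in knockout and 0.23, -0.31 and -0.25 in wild type. Itgb3, an integrin chain that other cells also make, differed by 0.08, and Gp1bb by 0.46. Itga2b, Gp1ba, Gp5, Gp6, Gp9, Ppbp, Treml1 and Tubb1 were not kept. The summed signal of the 5 genes, as a multiple of the 75th percentile, was 2.90 to 6.05 in knockout and 3.73 to 4.42 in wild type.

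Neutrophil genes had 8 of 13 kept and none past the threshold. Their median deviation was -0.78 in knockout replicate 2, which was the lowest ovary for 3 of the 8. S100a8, a calcium-binding protein abundant in neutrophils, read -2.77, -5.50 and -3.03 in knockout and -5.14, -4.46 and -5.38 in wild type. Its reading in knockout replicate 2 was only 33.1 intensity units. In wild-type replicate 3 it was 31.5 units and not well above background, so readings this dim do not rank those ovaries. Mmp9 and Camp, named after their values were seen, were also dim in knockout replicate 2, at 31.6 and 49.6 units. The neutrophil enzymes Mpo and Mmp8, and Cxcr2, Ngp and Retnlg, were not kept. Ltf and Lcn2, which secretory epithelium also makes, reached 3.55 and 3.68 in wild-type replicate 2. Those values raise the means of Ltf and Lcn2 and so lower their deviations in the other ovaries, knockout replicate 2 among them. Csf3r, the receptor for granulocyte colony-stimulating factor, was the brightest and differed by 0.04. The summed signal was 22.2 to 28.6 in knockout and 23.4 to 49.2 in wild type. Unlike the median, the sum was highest among the knockouts in replicate 2, where Csf3r, at 4.80, was also the highest of the 6 ovaries.

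Lymphocyte genes had 11 of 14 kept, a median difference of 0.015 and none past the threshold. Of these, 2 had an unadjusted p under 0.05, both of them chains of the T cell receptor complex. Cd3g read -3.96, -4.32 and -3.89 in knockout and -4.52, -4.55 and -5.03 in wild type, and Cd3d read -3.04, -3.51 and -3.05 in knockout and -3.57, -3.98 and -4.56 in wild type. Cd3e, another chain of the same complex, differed by 0.015, and Cd4, the other of the brightest pair, by -0.03. The summed lymphocyte signal was 2.95 to 3.60 in knockout and 3.18 to 3.26 in wild type. Cd79a, Cd8a and Igh-6 were not kept.

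Endothelial genes, all 12 kept and none past the threshold, had a median deviation of 0.35, -0.27 and 0.04 in knockout and -0.23, -0.13 and 0.18 in wild-type ovaries. Knockout replicate 2 was the lowest there, and Kdr, the main VEGF receptor, read 1.77, 1.86 and 1.99 in knockout and 1.70, 1.69 and 1.99 in wild type. Cldn5, the claudin of endothelial junctions, differed by 0.28 and the receptor Tie1 by 0.23. The summed endothelial signal was 14.3 to 19.9 in knockout and 13.8 to 18.7 in wild type. The part of blood cells, vessels or slide in the globin readings was not tested.

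**Figure D4:**
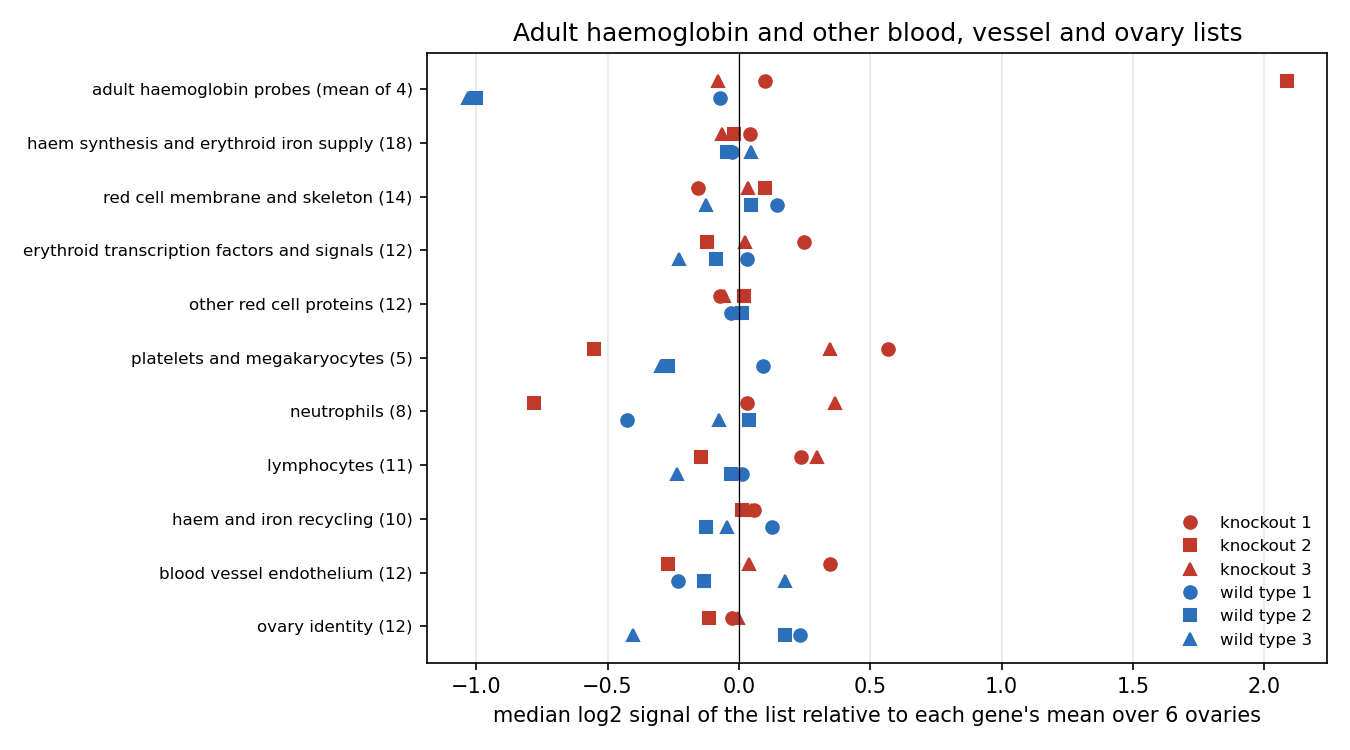
Deviation of each ovary (horizontal axis, log2 units) from the mean over 6 ovaries, as the mean of the 4 adult globin probes (top) and the median over the genes of each list (genes with a value on every array in brackets), with knockouts in red above wild types in blue. Knockout replicate 2 is at 2.09 for the globins, and at -0.55 for platelets and -0.78 for neutrophils.

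Genes that clear haemoglobin and recycle its iron had 12 of 15 kept, a median difference of 0.09 and none past the threshold. Hp, haptoglobin, which binds free haemoglobin, read -0.71, -2.76 and -1.50 in knockout ovaries, against -0.37, 1.48 and 0.84 in wild-type ovaries. Its genotypes did not overlap (4.75% of all kept probes had every knockout below every wild type), and its difference of -2.30 had a standard error of 0.65 and an unadjusted p of 0.0107 (limma, adjusted p = 1.00). Hp was lowest in the ovary with the most globin and highest in the pair with the least. Wild-type replicate 2, the highest for Hp, was also the highest for Ltf and Lcn2, at 3.55 and 3.68. In wild-type replicate 3 these read -0.22 and -2.76. The source of the Hp signal was not tested. Hpx, haemopexin, which binds free haem, read -5.22, -3.28 and -5.67 in knockout and -5.58, -5.81 and -6.21 in wild type, and is named after its values were seen. It was well above background on all 3 knockout arrays and on 2 wild-type arrays. Spic, the transcription factor of iron-recycling macrophages, differed by 0.47. The ferritin chains were the brightest of the list, but Fth1 had no usable spot in wild-type replicates 1 and 2, nor Ftl1 in wild-type replicate 2, so those fits rest on 4 and 5 arrays. The summed signal of the 10 genes with values on all arrays was 18.5 to 21.3 in knockout and 19.6 to 21.6 in wild type.

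Over the 6 arrays, the probe whose values most closely followed the mean of the 4 adult globin probes was the further beta globin probe, with a Pearson r of 0.993, the first of 3510 probes compared. These were kept probes well above background on every array that ranged over at least 1 log2 unit. The further beta globin probe reads the same gene family as Hbb-b1 and Hbb-b2 in that mean, so its first place is not independent evidence. The named genes with the highest r after it were Ccl19 (0.987), Dcc (0.980), Svs6 (0.977), Zdhhc22 (0.971), Treml4 (0.966), Bcan (0.961), Nr4a2 (0.953), Svs5 (0.952), Col6a4 (0.946), Syt10 (0.942), Grasp (0.942) and Sprn (0.936). Over 6 points of which 1 stands far out, r mostly records a high value in knockout replicate 2. Ccl19, a chemokine that guides lymphocytes and dendritic cells, read -3.27, -2.20 and -3.15 in knockout and -3.22, -3.71 and -3.89 in wild-type ovaries. It spanned 1.69 log2 units between the highest and the lowest ovary. Col6a4, a collagen chain, read -4.75, -2.56 and -4.71 in knockout and -4.74, -4.81 and -5.24 in wild type. The files place the Dcc probe on chromosome 7, where that gene does not lie, so what it reads is uncertain. None of the 12 is on the red cell lists.

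The promoters of the alpha and beta globins, which lie on different chromosomes, are shown as background. Whether promoters had a part in the probes rating the ovaries alike was not tested. The 150 bases before the start of transcription come from RefSeq on assembly GRCm38.p6, and 4 of the 9 members were found there under their own names, Hba-a1, Hba-a2, Alas2 and Klf1. Hbb-bt and Hbb-bs stand for the beta globins of this strain. Capitals mark 4 short motifs on either strand. These are CACCC, the core that Klf1 binds, then CCAAT, the core of the CCAAT box, then TATAA, the core of the TATA box, and last GATAA, which GATA factors such as Gata1 bind. On the reverse strand the first appears as GGGTG, the second as ATTGG and the fourth as TTATC. The CCAAT motif and its reverse abut in Hbb-bt without overlap. The Hba-a1 window is chr11:32283522-32283671 on the forward strand, Hbb-bt is chr7:103813924-103814073 and Hbb-bs chr7:103827929-103828078 on the reverse strand, and Alas2 is chrX:150547267-150547416 on the forward strand.
Hba-a1 promoter: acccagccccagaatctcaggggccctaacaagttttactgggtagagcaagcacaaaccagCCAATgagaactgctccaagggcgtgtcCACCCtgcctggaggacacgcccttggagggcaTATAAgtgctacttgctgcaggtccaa
Hbb-bt promoter: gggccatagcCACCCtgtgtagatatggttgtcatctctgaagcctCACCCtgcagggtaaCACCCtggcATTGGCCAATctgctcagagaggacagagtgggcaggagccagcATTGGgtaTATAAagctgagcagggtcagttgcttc
Hbb-bs promoter: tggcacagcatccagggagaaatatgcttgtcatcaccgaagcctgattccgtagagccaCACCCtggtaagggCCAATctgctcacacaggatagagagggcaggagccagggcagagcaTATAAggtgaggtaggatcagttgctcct
Alas2 promoter: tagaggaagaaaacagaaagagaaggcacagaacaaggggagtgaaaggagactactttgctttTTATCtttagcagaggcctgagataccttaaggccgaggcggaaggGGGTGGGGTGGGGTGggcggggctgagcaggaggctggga
The 3 globin windows each hold the first 3 motifs, with TATAA beginning 27 to 29 bases before the start. Hbb-bt holds CACCC 3 times, and Hba-a1 and Hbb-bs hold it 1 time each. Alas2 holds CACCC 3 times and GATAA 1 time, all on the reverse strand, and the other motifs were not found in its window. The Hba-a1 window matched the Hba-a2 sequence at 150 of 150 bases at an offset of 3 bases. Of 27025 promoters of the same length, 36.9% hold CACCC, 25.3% CCAAT, 14.7% TATAA and 13.6% GATAA, so a match by itself is common and shows no binding in these samples.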

How the data were processed

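Total RNA of 6 ovaries was measured, 3 SeBP1 knockout and 3 wild type, grouped by the genotype in the labels. Per the file headers, Agilent Feature Extraction 10.7.1.1 made the deposited intensity values, which are linear, background-subtracted and detrended within an array but not scaled between arrays, with probe positions in mm9. A deposited table of the whole series gives intensity too, with a median of 119.8 on every array, and was used as an alternative. The sources used here do not say how it was made. Its linear scale follows from a Spearman correlation of at least 0.9999 with each array's scanner values.

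Outlier spots (192 to 459 per array) were left out, spots of a probe were averaged, and log2 values were set relative to the 75th percentile of the array. A probe was kept if 1 or both genotypes had it well above background on each of the 3 arrays. Knockout and wild type were compared with limma 3.58.1 in R 4.3.3 (lmFit and eBayes, two-sided, genotype as the only term), with Benjamini-Hochberg adjustment over all 24415 kept probes and a threshold of 0.05. The fit was tested on simulated data. The number of arrays limits the precision.

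Of each gene list, with 1 probe per gene, the text names the 2 genes with the smallest p and the 2 brightest, counted under both where they coincide, and the 12 genes most like the adult globin mean by Pearson r over 6 arrays, clone names left out. A few listed genes are not reported here by name. The members, lists and rules were chosen with earlier results of these data known. The 17 alternatives cover background correction, normalization, filters, slide, array weights, replicate number and each array left out. Figures were drawn with matplotlib 3.10.9 and tables handled with pandas 2.3.3 (Python 3.11.15).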

Additional observations from a re-analysis of the deposited data

How the results depend on the processing

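No member probe was called in either direction under any of the 17 alternatives, and the median difference over the member probes ran from 0.65 without knockout replicate 2 to 1.63 without knockout replicate 3. The 4 adult globin probes and Alas2 were higher in the knockout under all 17. At an unadjusted p under 0.05 stood Hba-a1 under 3 alternatives, Hba-a2 under 5, Hbb-b1 under 4 and Hbb-b2 under 8 (limma), with smallest adjusted p of 0.315, 0.303, 0.308 and 0.283. Slc4a1 changed sign to 0.17 with slide as a fixed block or on the shared slide alone, to 0.0012 with slide as a random block, and to 0.0067, 0.0081 and 0.039 without wild-type replicate 2, wild-type replicate 1 and knockout replicate 1. Car1 changed sign to 0.11 with slide as a fixed block or on the shared slide alone, and to 0.011 and 0.030 without knockout replicate 1 and wild-type replicate 1. Leaving out 1 array gave -0.15 to 0.030 for Car1 and -0.15 to 0.039 for Slc4a1. The cause was not tested, and no unadjusted p among these was under 0.384 (limma). Over all probes, 1 was called in the main comparison and 6 with array weights. With no filter, with slide as a fixed block, with replicate number as a block and on the shared slide alone, 0 were called. Leaving out 1 array gave 0 to 19, with 19 without wild-type replicate 3. The other 6 alternatives that keep all arrays and leaving out knockout replicate 2 gave 1. Each scaling moved the median of all kept probes by less than 0.1.

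The groups share the replicate numbers 1 to 3 of the labels' descriptions, while the sample titles carry other numbers, and nothing says that a number marks a shared animal or batch. The samples therefore share only a number. Deviations from the group means of same-numbered arrays correlated at -0.33, 0.30 and -0.03 over probes. With the replicate block, 0 probes were called, 1023 against 964 had an unadjusted p under 0.05 (limma), the median over the member probes was 1.28, and 0 member probes were called in either direction.

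Dim members are limited by signal over background, since Hbb-bh1, Klf1 and the second Car1 probe were measured on 3 arrays or fewer. With 3 ovaries a genotype and 1 far from the rest, the intervals of the globins cannot separate no difference from a several-fold one.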
